A study of Mus musculus with 48 samples.

Results

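The libraries compared here are the 12 libraries of differentiated C2C12 cells that were not stretched, 6 from the experiment coded B25 and 6 from the experiment coded B28, out of 48 libraries in the whole study. They were chosen by their labels alone, and no measured value entered the choice. C2C12, an established mouse myoblast line, leaves the cell cycle and fuses into multinucleated myotubes when the serum is reduced. All 12 cultures were differentiated in medium with horse serum on flexible, collagen-coated plates and received the same handling as the stretched cells except for the stretching itself. The labels name no transgene and no drug. They were collected together with plates whose stretching had lasted 1, 3 or 6 h, and at each of these 3 times B25 gave 2 libraries (replicates 7 and 8) and B28 gave 2 (replicates 9 and 10). The labels call the cells myotubes and their source C2C12 myoblast cells. The comparison asks how far differentiated cultures of separate experiments differ when no stretch was applied.

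Each code stands for 1 experiment, so whatever differed between the 2 experiments cannot be told apart, and the p-values measure the spread between libraries rather than between independent differentiations. The study's methods count the experiments behind the differentiated cells differently from these codes, and the codes were followed here. Values are given for B28 against B25, as a difference on the log2 scale from edgeR's quasi-likelihood test with the time as a block, and levels are in CPM, a gene's count relative to the TMM-scaled total of its library, which takes no account of gene length. Calls were made at an adjusted p-value (Benjamini-Hochberg) under 0.05, and a stricter count also asked for a log2 difference of at least 0.58 in either direction.

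A myotube culture is a mixture. Most nuclei sit in fused fibers that make myosin, actin and the titin scaffold of the sarcomere, while a minority of cells stays unfused as reserve cells or keeps dividing. Cultures of the same line can therefore differ in how far the contractile programme has advanced, in their lipid supply, in the tension they hold, and in how strongly a sensor such as the aryl hydrocarbon receptor is engaged. This receptor binds planar aromatic compounds and tryptophan products, pairs with ARNT and turns on the genes of its own detoxifying enzymes and of its repressor.

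The cells expressed the genes of differentiated muscle in both experiments. Myog, the transcription factor of terminal differentiation, ranged from 825 to 941 CPM in the 6 B25 libraries and from 748 to 921 CPM in the 6 B28 libraries, and its difference of -0.07 had an adjusted p-value of 0.305. Ckm, the creatine kinase of muscle, had 298 to 354 CPM against 276 to 353 CPM, and a difference of -0.02 (adjusted p = 0.82). Skeletal actin, Acta1, differed by -0.08 (adjusted p = 0.121). The groups overlapped for all 3 of these genes. Other markers of myotubes, Myh8, Myh3 and Mylpf, were called lower in B28. They are given below with the sarcomere genes, of which 20 were lower and 3 higher. Markers of macrophages and endothelial cells were close to background. The 8 macrophage markers summed to between 1.98 and 2.51 CPM over the 12 libraries, with Adgre1 at 0 counts in every library, and the 8 endothelial markers summed to between 1.59 and 2.29 CPM. Fibroblast markers, at 891 to 1068 CPM in sum, and the 11 markers of bone and cartilage, at 1398 to 1692 CPM, were well above that level in both experiments. The bone and cartilage sum does not stand for every member, since 7 of the 11 passed the filter on low counts. Summed over the B25 and over the B28 libraries, Bglap had 5 and 1 counts, Ibsp 0 and 1, Acan 0 and 2, and Alpl 29 and 20. Csf1r, a macrophage receptor, had a mean of 11.8 counts per library and an adjusted p-value of 0.45. Pax7, which marks satellite and reserve cells, did not pass the test either, with a difference of 0.01 ± 0.04 (SE) and an adjusted p-value of 0.918. Of 22 tested genes of undifferentiated muscle cells, Pax7 among them, 5 were higher and 3 lower in B28. Their differences ran from -0.308 to 0.301 with a median of 0.00977, where 8.81% of all genes were higher and 8.86% lower.

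Library totals ranged from 55589577 to 62649950 counts in B25 and from 62576731 to 70139730 in B28, so the B28 libraries were deeper on average (exact permutation test within time, two-sided, p = 0.00926, adjusted p = 0.0185 over 6 measures, the smallest value that the permutations allow). The number of genes detected and the share of the 10 most abundant genes had exact permutation p-values of 0.231 (n = 6 and 6). A list of noncoding RNAs, among them Malat1, Neat1, H19 and Gas5, took 1.27% of the counts in B25 and 1.20% in B28 (exact permutation p = 0.0185, adjusted p = 0.0277). This share is not a measure of nuclear RNA as such. The mean log2 level of transcripts over 15 kb, relative to the mean of the 12 libraries, was 0.14 in B25 and -0.14 in B28 (exact permutation p = 0.00926, adjusted p = 0.0185). The part of these library measures in the results was not tested. Over 11905 genes, the experiment took 23.5% of the summed squares of log2 CPM, the time 20.2%, and the rest 56.3%. The rest holds the spread between libraries of the same experiment and time and any change of the experiment difference with time. The shares take no account of the number of levels, 2 for the experiment and 3 for the time. One library stood apart from its own experiment, replicate 10 of B28 at 6 h. Its deviations correlated with those of the other B28 libraries at a mean r of -0.193, while the other 11 libraries lay between 0.0129 and 0.196 with their own experiment. It kept to the B28 side for some genes and lay with B25 for others, and results that rest on it are given with and without it.

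**Figure D1:**
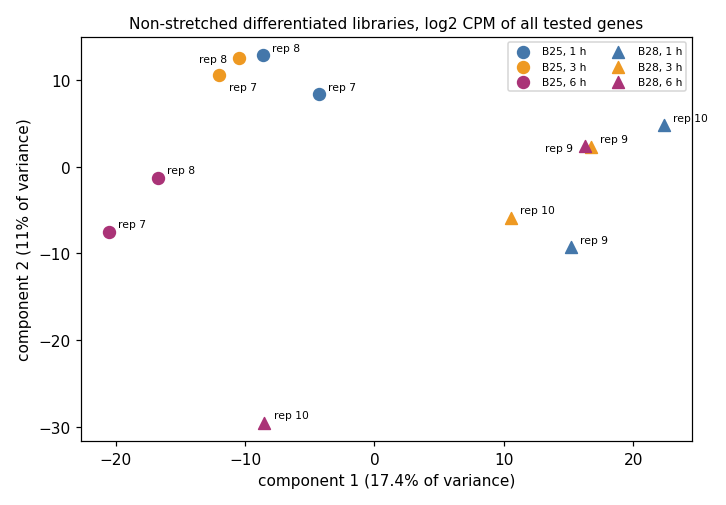
Principal components of the 12 non-stretched libraries over 16059 genes, with component 1 (17.4% of the variance) on the horizontal axis and component 2 (11%) on the vertical axis. Points are libraries, marker shapes the experiments and colors the times. The 6 B25 libraries lie at negative values of component 1 and 5 of the 6 B28 libraries at positive values, while replicate 10 of B28 at 6 h sits at -8.5 on component 1 and at -29.47 on component 2.

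Many genes differed between the experiments, nearly all of them by little. Of 16059 genes tested, 1415 (8.81%) were higher in B28 and 1423 (8.86%) were lower at an adjusted p-value under 0.05, and with the limit of 0.58 on the log2 difference these were 119 (0.741%) and 84 (0.523%). The median absolute difference of all genes was 0.0727 on the log2 scale, and the signed median was 0.00491. For 850 genes (5.29%) the 6 B28 libraries did not overlap with the 6 B25 libraries, and 815 of these were among the 2838 genes called. Without replicate 10 of B28 at 6 h the calls past both limits were 173 higher and 109 lower, and 195 of the 203 calls made with it were kept.

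Among called genes that averaged 100 counts or more and whose libraries did not overlap, the largest fall was that of a target of the aryl hydrocarbon receptor. Cyp1a1 is the cytochrome P450 that serves as the classical readout of this receptor. It had 2.95 CPM in the lowest, 3.11 in the median and 5.2 in the highest B25 library, against 0.186, 0.584 and 0.764 CPM in B28. Every B28 library lay below every B25 library, the difference was -2.71 ± 0.18 (SE, n = 6 and 6) and the adjusted p-value of edgeR was 1.49e-06. Ahrr, the repressor that the receptor induces against itself, had 7.61 to 9.85 CPM in B25 (median 8.79) and 4.23 to 5.33 CPM in B28 (median 5.17), again without overlap, a difference of -0.82 ± 0.07 (adjusted p = 5.48e-06). Aldh3a1, an aldehyde dehydrogenase of the same battery, had 89.3 to 124 CPM in B25 and 32.5 to 76.0 CPM in B28, a difference of -0.70 ± 0.15 (adjusted p = 0.00598). Cyp1a1 lies on chr9:57687928-57703824 and Ahrr on chr13:74211118-74292331 (mm10).

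The promoters of Cyp1a1 and Ahrr are shown because these are the target genes with the largest falls and because the core of the receptor's response element, GCGTG, can be read in them. Each sequence covers 250 bases before and 50 bases after the start of the gene as RefSeq gives it on GRCm38.p6, chr9:57697363-57697662 on the plus strand for Cyp1a1 and chr13:74292282-74292581 on the minus strand for Ahrr, with the 5 letters in capitals.
Cyp1a1: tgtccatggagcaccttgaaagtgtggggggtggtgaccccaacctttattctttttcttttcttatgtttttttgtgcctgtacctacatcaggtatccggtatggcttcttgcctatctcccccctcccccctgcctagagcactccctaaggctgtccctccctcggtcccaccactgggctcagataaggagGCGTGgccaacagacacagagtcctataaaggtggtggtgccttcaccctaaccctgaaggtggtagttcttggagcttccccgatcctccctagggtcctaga
Ahrr: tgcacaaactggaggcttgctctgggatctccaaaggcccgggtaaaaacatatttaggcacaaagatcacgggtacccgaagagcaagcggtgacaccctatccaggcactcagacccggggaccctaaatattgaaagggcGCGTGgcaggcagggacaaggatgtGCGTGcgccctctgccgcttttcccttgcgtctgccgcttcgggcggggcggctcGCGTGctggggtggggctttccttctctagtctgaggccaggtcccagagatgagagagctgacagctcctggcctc
GCGTG was searched on both strands, that is also as CACGC. The Cyp1a1 window holds it 1 time and the Ahrr window 3 times. The receptor list has 7 genes, the targets and the receptor's own gene Ahr. Of these 7, 5 had a promoter in the RefSeq table, and 4 of these 5 held the motif, against 32.4% of all 32851 promoters of the same length. The Cyp1b1 and Tiparp windows hold it 1 time each and the Nqo1 window 0 times. A match describes the letters only.

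All 7 genes of the receptor list lay below 0, and 6 were lower in B28 at the adjusted p-value, with a median of -0.571. Cyp1b1, the other inducible cytochrome of this family, had 285 to 315 CPM in B25 and 172 to 223 CPM in B28 (difference -0.57 ± 0.05, adjusted p = 1.26e-05). Nqo1, a quinone reductase, had 71.9 to 101 CPM in B25 and 38.8 to 68.0 CPM in B28 (difference -0.46, adjusted p = 0.00728). Tiparp, an ADP-ribosyltransferase that restrains the receptor, had 89.6 to 98.1 CPM against 71.2 to 80.7 CPM (difference -0.30, adjusted p = 2.91e-05). None of these genes overlapped between the experiments. The receptor's own gene, Ahr, had 59.5 to 64.7 CPM in B25 and 57.5 to 64.2 CPM in B28, overlapped, and differed by -0.07 (adjusted p = 0.0717). The 6 calls of the list were the same in number without replicate 10 of B28 at 6 h and with offsets for transcript length and GC content. At single times, 4 of the 7 genes were lower at 1 h, 4 at 3 h and 4 at 6 h, where 2.45%, 0.981% and 0.466% of all 16309 genes were lower.

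**Figure D2:**
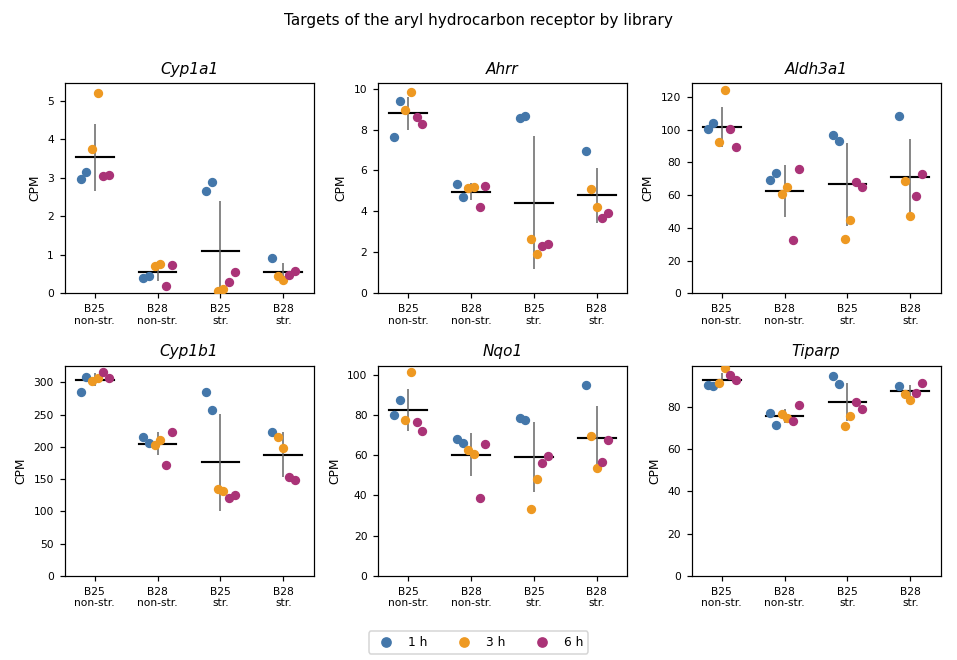
CPM of 6 targets of the aryl hydrocarbon receptor (Cyp1a1, Ahrr, Aldh3a1, Cyp1b1, Nqo1 and Tiparp) in non-stretched and stretched differentiated cells of B25 and B28, on linear axes from 0. Points are libraries colored by time, lines the group means and bars the SD. In non-stretched cells B28 lies below B25 for each gene without overlap, while the stretched groups overlap.

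In stretched cells of the same experiments the difference of the receptor list changed with the time. Its summed level at 1 h was 629.3 and 590.5 CPM in stretched B25 and 584.1 CPM in the only stretched B28 library. At 3 h it was 339.8 and 362.5 CPM against 515.4 and 451.1 CPM, and at 6 h 371.2 and 376.1 CPM against 406 and 429 CPM. The contrast with the time as a block averages over these times. In the 11 stretched libraries, 6 of B25 and 5 of B28 (the only library of code B17 was left out), 0 of the 7 genes were called by edgeR, with adjusted p-values from 0.109 for Nqo1 to 0.985 for Cyp1a1, and the median was 0.261. In stretched B25 cells Cyp1a1 was at 2.67 and 2.88 CPM at 1 h, at 0.0481 and 0.112 CPM at 3 h, and at 0.292 and 0.541 CPM at 6 h, while stretched B28 cells held between 0.357 and 0.924 CPM. The B25 libraries of 1 h thus stood at the level of the non-stretched B25 cells and above every stretched B28 library. Those of 3 h and 6 h stood below that level, and those of 3 h below every stretched B28 library. The difference between stretched and non-stretched cells in the B28 against B25 contrast, tested as an interaction of experiment and stretch, was called for 5 of the 7 genes, where 0.186% of 16662 genes were called in that direction and 0.198% in the other. It was 1.33 ± 0.19 for Ahrr (adjusted p = 0.00365), 0.85 for Cyp1b1 (adjusted p = 0.00365) and 0.42 for Tiparp (adjusted p = 0.00114). It was 2.57 for Cyp1a1 (adjusted p = 0.025) and 0.78 for Nqo1 (adjusted p = 0.038), and leaving out 1 library at a time ended these last calls in 5 and 14 of 23 cases. Ahrr, Cyp1b1 and Tiparp kept the call in all 23.

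Among non-stretched myoblasts, which came from other experiments coded B27 and B31 and were quantified in a separate table, the list also differed. Mean Cyp1a1 was 14.4 CPM in B27 and 2.31 CPM in B31, a difference of -2.64 (adjusted p = 4.03e-13), and Cyp1b1 differed by -1.22 (adjusted p = 1.86e-13). Of the 7 genes, 5 were lower and 1 was higher in B31, while over 15430 genes 2.44% were lower and 1.97% higher.

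Among genes of the contractile apparatus, Myl2 had the largest fall. Myl2, the regulatory myosin light chain of slow muscle and heart (chr5:122100951-122113472, mm10), had 9.18 to 11.7 CPM in B25 with a median of 9.63, and 3.02 to 4.93 CPM in B28 with a median of 4.12. The lowest B25 library was above the highest B28 library, and the difference was -1.31 ± 0.10 (adjusted p = 5.3e-06). It was -1.45 in stretched cells (adjusted p = 1.5e-06), where B25 had 6.95 to 12.7 CPM and B28 2.81 to 4.52 CPM. Myh7, the slow myosin heavy chain, had 348 to 417 CPM in B25 and 228 to 329 CPM in B28 (difference -0.50, adjusted p = 0.00105), and 22.9% of its sequence stretches of 31 bases occur in other genes. Myh8, the perinatal heavy chain, differed by -0.46 (adjusted p = 0.000127), with 18.6% shared. Neither heavy chain overlapped between the experiments, and both were also lower in stretched B28 cells, by -0.64 and -0.52.

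Of 51 tested genes of sarcomere proteins, 20 were lower and 3 higher in B28, with a median of -0.0977, where 8.86% of all genes were lower and 8.81% higher. Without replicate 7 of B25 at 3 h the lower calls numbered 13. The main developmental and structural genes moved little. Myh3, the embryonic heavy chain, fell by 0.12 (adjusted p = 0.0219) and Mylpf, the fast light chain, fell by 0.12 (adjusted p = 0.0285), and each call was lost when some single libraries were left out (5 and 7 of 12). Csrp3, a Z-disc protein linked to stretch sensing, had 51.3 to 63.2 CPM in B25 and 39.0 to 51.5 CPM in B28 (difference -0.31, adjusted p = 0.00412). Ankrd2, a stretch-responsive ankyrin repeat protein, had 63.1 to 77.3 CPM against 45.9 to 62.9 CPM without overlap (difference -0.40, adjusted p = 0.00154). Mybpc1, the slow myosin-binding protein, went the other way at 12.3 to 15.1 CPM in B25 and 13.6 to 23 CPM in B28 (difference 0.55, adjusted p = 0.00209). In stretched cells 29 of the 51 genes were lower and 0 higher, with a median of -0.133, where 2.46% and 2.03% of 16293 genes were called in these directions.

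Of 20 calcium handling genes tested, 7 were lower and 0 higher, with a median of -0.0784, beside 8.86% lower and 8.81% higher over all genes. Kcnj2, the inward rectifier potassium channel that sets the resting potential, had 27.9 to 31.8 CPM in B25 and 17.7 to 23 CPM in B28 (difference -0.63, adjusted p = 1.78e-06). The 2 groups did not overlap, and the B28 value nearest to B25 was that of replicate 10 at 6 h. Ryr1, the release channel of the sarcoplasmic reticulum, fell by 0.43 (adjusted p = 0.000651). The 14 myogenic factors gave 1 higher and 2 lower calls with a median of -0.00807, the 14 tested fusion genes 2 and 3, and the 15 genes of the neuromuscular junction 1 and 4. Over all genes 8.81% were higher and 8.86% lower. The lower calls of the fusion and neuromuscular junction genes were a larger share than that, but they rest on few genes. They were not read as a result about these lists.

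The giant transcripts of the sarcomere shared their fall with long transcripts in general. Ttn, the titin gene, had 3445 to 7687 CPM in B25 (median 5986) and 971 to 5238 CPM in B28 (median 2180). The 2 groups overlapped, and the highest B28 value was again that of replicate 10 at 6 h, the other 5 reaching at most 2337. The difference was -1.24 ± 0.28 (adjusted p = 0.00907), and -1.54 without that library (adjusted p = 0.00080). Neb, the nebulin gene, differed by -0.77 (adjusted p = 0.00541). Outside the sarcomere, the cytoskeletal linkers Macf1 (difference -0.65, adjusted p = 0.00452) and Dst (difference -0.65, adjusted p = 0.00515) also fell.

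Over 54 genes whose longest transcript exceeds 15 kb and whose mean reaches 100 counts, 30 were lower and 1 higher with a median of -0.308. The median was -0.158 for 239 genes of 10 to 15 kb, -0.0422 for 2437 genes of 5 to 10 kb, 0.00781 for 6435 genes of 2 to 5 kb, and 0.0245 for 2389 genes of up to 2 kb. Across 11554 genes, which are not independent replicates, Spearman's rho of the difference was -0.293 with length and 0.252 with GC content. In stretched cells the relation had the other sign, with rho 0.228 for length and a median of 0.0795 above 15 kb. The stretched B28 libraries were divided. Their mean log2 level of transcripts over 15 kb was 0.22 and 0.41 in replicate 9 at 3 h and 6 h. In the others it was -0.32 (1 h), -0.18 (3 h) and -0.06 (6 h), and in stretched B25 it lay between -0.28 and 0.12. The part of transcript length in the calls on long genes was not tested gene by gene. With offsets for length and GC content, 25 sarcomere genes were lower and 3 higher. The longest transcript has 889 bases for Myl2 and 2433 bases for Csrp3. These are 2 of the 51 sarcomere genes, and the part of length in the calls of that list was not tested.

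**Figure D3:**
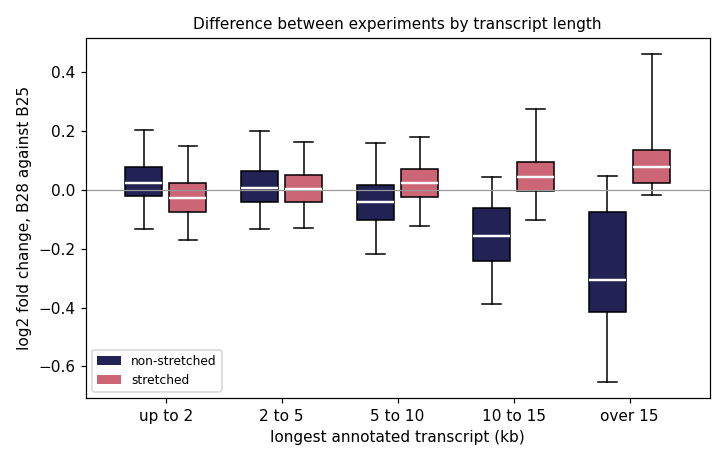
Log2 difference of B28 against B25 in 5 classes of longest transcript, for non-stretched and for stretched differentiated cells, over genes that averaged 100 counts or more. Boxes span the quartiles with the median as a line, and whiskers reach the 5th and 95th percentiles. In non-stretched cells the median falls from 0.0245 up to 2 kb to -0.308 over 15 kb, and in stretched cells it goes from -0.0258 to 0.0795.

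Several of the largest rises were in genes of the matrix and of secreted factors. Col8a2, a short-chain collagen (chr4:126286793-126314330, mm10), had 7.48 to 9.44 CPM in B25 with a median of 8.78, and 12.2 to 19.6 CPM in B28 with a median of 18.1. The groups did not overlap, and the difference was 1.00 ± 0.10 (adjusted p = 3.39e-05). The lowest B28 value was that of replicate 10 at 6 h, without which the difference was 1.10. Sfrp2, a secreted modulator of Wnt signaling, had 3.06 to 3.98 CPM in B25 and 4.32 to 9.40 CPM in B28 (difference 0.77 ± 0.15, adjusted p = 0.00367). Here the same library was the highest, and without it the difference was 0.59 (adjusted p = 0.000638). Itga11, a collagen-binding integrin, had 2.60 to 3.29 CPM against 3.65 to 5.15 CPM (difference 0.65, adjusted p = 9.63e-05). Ptn, the growth factor pleiotrophin, had 7.47 to 9.33 CPM against 10.9 to 14.1 CPM (difference 0.62, adjusted p = 5.42e-06). Ptn did not keep its difference in stretched cells, where it was 0.00, and the interaction of experiment and stretch was -0.62 (adjusted p = 0.00373).

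The matrix genes as a list were divided. Of 44 tested, 10 were higher and 9 lower, with a median of 0.0227, where 8.81% and 8.86% of all genes were. The basement membrane chains Col4a1 (319 to 358 CPM in B25, 363 to 442 CPM in B28) and Col4a2 (254 to 288 and 295 to 362 CPM) rose by 0.24 and 0.22 (adjusted p = 0.0011 and 0.00337). Col5a3 rose by 0.56, from 122 to 140 CPM in B25 to 149 to 217 CPM in B28 (adjusted p = 1.08e-05), and Postn, the matricellular periostin, by 0.30 (adjusted p = 0.00035). These 4 did not overlap between the experiments and were also higher in stretched B28 cells, by 0.31, 0.29, 0.49 and 0.30. On the other side Timp2, an inhibitor of matrix proteases, had 2358 to 2460 CPM in B25 and 1871 to 2063 CPM in B28 (difference -0.31, adjusted p = 3.31e-06). Fn1, fibronectin, fell by 0.33 (adjusted p = 0.0425), a call that was lost in 8 of the 12 fits without 1 library.

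Of 10 fibroblast markers tested, 6 were lower and 0 higher with a median of -0.254, beside 8.86% and 8.81% of all genes, the same counts as without replicate 10 of B28 at 6 h. Dcn, the proteoglycan decorin, had 114 to 123 CPM in B25 and 77.1 to 97.7 CPM in B28 without overlap (difference -0.49, adjusted p = 2.54e-06). Pdgfra, a receptor of mesenchymal progenitors, differed by -0.33 (adjusted p = 0.00071). Lum, lumican, was rare at 0.334 to 0.486 CPM against 0.0154 to 0.217 CPM (difference -2.09, adjusted p = 0.0011). The summed level of the list was 1007 to 1068 CPM in B25 and 891 to 974.9 CPM in B28, and in bulk RNA fewer cells of a type and less RNA per cell cannot be told apart.

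Other secreted factors and receptors completed the named genes. Il33, an alarmin cytokine, had 35.4 to 40.1 CPM in B25 and 17.7 to 27 CPM in B28 (difference -0.95 ± 0.07, adjusted p = 5.08e-06). The other 5 B28 libraries lay between 17.7 and 18.5 CPM, and replicate 10 at 6 h was at 27 CPM. Igfbp4, a binding protein of insulin-like growth factors, had 106 to 119 CPM in B25 and 67.3 to 73.2 CPM in B28, a difference of -0.67 ± 0.02 with the smallest adjusted p-value of all genes, 4.31e-09. Nkd2, an inhibitor of Wnt signaling, had 19 to 23.6 CPM against 10.6 to 14.3 CPM (difference -0.75, adjusted p = 6.71e-07). Its stretched difference was 0.01 and its interaction 0.75 (adjusted p = 0.00365). Adh7, an alcohol dehydrogenase, differed by -0.26 in non-stretched and by 0.36 in stretched cells, an interaction of 0.62 (adjusted p = 0.00365).

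Plekha6 fell by 1.17, Tspan11 by 1.03, Slco4a1 by 0.84, Itgbl1 by 0.74 and Tmprss11b by 0.71, with adjusted p-values from 6.71e-07 to 0.000128 and no overlap between the experiments. The rises of this kind were Gpr176, an orphan receptor (difference 0.78), Kif1a, a kinesin of axonal transport (0.74), the atypical chemokine receptor Ackr4 (0.71), Cth, the enzyme that makes cysteine from cystathionine (0.65), Ighm (0.59), Fibin (0.59) and Dnaaf3 (0.58), with adjusted p-values from 5.08e-06 to 0.0018. Most were measured at fewer than 10 CPM. Kif1a had 4.51 to 5.39 CPM in B25 and 7.35 to 9.30 CPM in B28, and Ackr4 1.35 to 1.69 CPM against 1.94 to 3.21 CPM.

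Genes of cholesterol synthesis were higher in B28 almost throughout. These enzymes are switched on together by SREBP2 when the sterol content of the endoplasmic reticulum drops. Of 25 genes tested, 23 were higher in B28 and 0 lower, all 25 lay above 0, and the median was 0.238, where 8.81% of all genes were called higher. Hmgcs1, the synthase at the entry of the pathway, had 324 to 343 CPM in B25 with a median of 339, and 375 to 423 CPM in B28 with a median of 389. The groups did not overlap, and the difference was 0.24 ± 0.03 (adjusted p = 0.000129). Insig1, the retention factor of the sterol sensor, had 139 to 150 CPM against 169 to 194 CPM (difference 0.35, adjusted p = 2.59e-05).

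The cyclase Lss rose by 0.36 and Acat2 by 0.44, although 43.7% of the stretches of Acat2 occur in other genes. Srebf2, the gene of the factor itself, differed by 0.05 (adjusted p = 0.22). Genes of fatty acid synthesis gave 9 higher and 0 lower of 14, with a median of 0.168, beside the same 8.81% and 8.86% of all genes. Scd2, a desaturase, rose by 0.26 and Elovl6, an elongase, by 0.33, while Fasn differed by 0.01 (adjusted p = 0.969).

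The sterol genes were called at 1 h in 20 cases, at 3 h in 21 and at 6 h in 5, against 2.92%, 1.37% and 0.288% of all genes called higher at these times. In stretched cells 3 of the 25 were higher, where 2.03% of all genes were, and the median was 0.103. The interaction of experiment and stretch was called for 5 of the 25, all with a smaller difference in stretched cells. Of all genes, 0.198% had a negative interaction by the same call. Without replicate 10 of B28 at 6 h 24 of the 25 were higher. That library had 375 CPM of Hmgcs1, below the 546 and 591 CPM of the 2 stretched B28 libraries of 6 h.

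Targets of YAP and of serum response factor, which respond to cell tension and actin dynamics, gave 14 higher and 4 lower of 24 with a median of 0.116, where 8.81% of all genes were higher and 8.86% lower. Tagln, the actin-binding transgelin, had 100 to 120 CPM in B25 (median 112), and 105 to 196 CPM in B28 (median 184). The groups overlapped only through replicate 10 of B28 at 6 h, at 105 CPM, since the other 5 lay between 182 and 196. The difference was 0.63 ± 0.10 (adjusted p = 0.00128), and 0.74 without that library (adjusted p = 7.78e-08). Ctgf, a matricellular growth factor, had 64.0 to 73.9 CPM in B25 and 63.4 to 130 CPM in B28, the lowest value again being that library (difference 0.69, adjusted p = 0.00121). Without it the difference was 0.82 and the lowest B28 value 114 CPM. Actg2 rose by 0.72, Myl9 by 0.46 and Acta2 by 0.22, and each overlapped between the experiments. Cnn1, calponin, rose by 1.36 at low levels, 0.279 to 0.500 CPM against 0.346 to 1.53 CPM. Without replicate 10 of B28 at 6 h the list had 16 higher and 4 lower calls. The lower calls fell to 1 or 2 when any of 9 other libraries was left out. In stretched cells 1 of the 24 was higher and 2 lower, with a median of -0.00891, beside 2.03% and 2.46% of all genes.

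Interferon-stimulated genes gave 13 higher and 0 lower of 32, with a median of 0.175, where 8.81% and 8.86% of all genes were called. The most changed were scarce. Ifit1, an RNA-binding antiviral protein, had 0.30 to 0.632 CPM in B25 and 0.785 to 1.44 CPM in B28 without overlap (difference 1.00, adjusted p = 0.00146). Ifi44 had 0.0179 to 0.101 CPM against 0.107 to 0.220 CPM, a mean of 6.75 counts per library (difference 1.59, adjusted p = 0.00951). Ifih1, the sensor of double-stranded RNA, rose by 0.47 (adjusted p = 0.0121) and the factor Irf9 by 0.18 (adjusted p = 0.013). In stretched cells these 4 genes were higher too, by 1.19, 1.97, 0.64 and 0.29. The summed CPM of the list was 408 to 418 in B25 and 420 to 437 in B28. Csf1, the macrophage growth factor, rose by 0.28, from 154 to 172 CPM in B25 to 180 to 211 CPM in B28 (adjusted p = 0.00027), while the macrophage markers stayed at the background given above in both experiments.

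**Figure D4:**
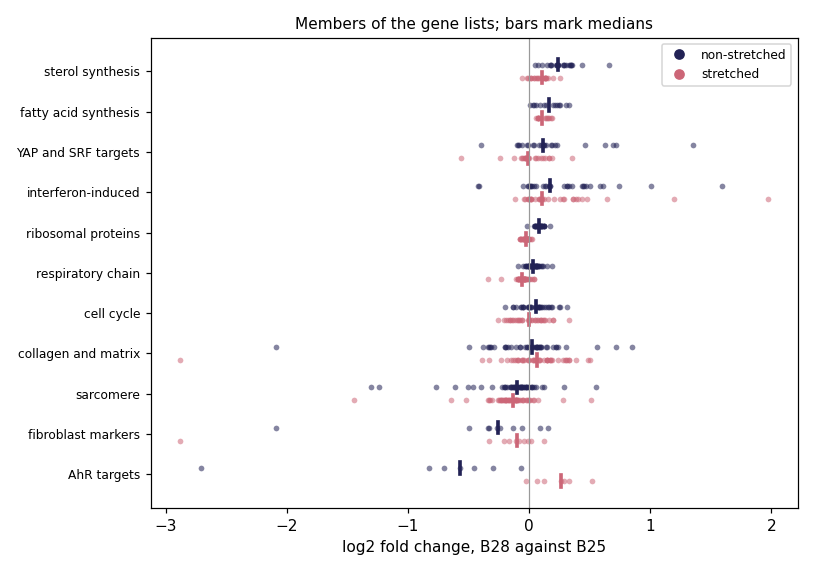
Log2 difference of B28 against B25 for the members of 11 gene lists in non-stretched and stretched differentiated cells. Points are genes and bars the list medians. The median of the receptor list, which includes Ahr itself, lies at -0.571 without and at 0.261 with stretch. That of the sterol genes lies at 0.238 and 0.103, and that of the sarcomere genes at -0.0977 and -0.133.

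Genes of the cell cycle were called between the experiments mostly at 1 h, and the dependence on time did not pass after adjustment. Pooled over the times, 1 of 35 was higher and 1 lower, fewer than the 8.81% and 8.86% of all genes would give. At 1 h, 15 of the 35 were higher in B28, at 3 h 2, and at 6 h 0 by edgeR (adjusted p = 0.27 for Cenpa), against 2.92%, 1.37% and 0.288% of all genes. Without the 6 h libraries, a choice made after the values were seen, 16 were higher. Their summed level in B28 was 1728 and 1617 CPM at 1 h, 1473 and 1505 CPM at 3 h, and 1200 and 1146 CPM at 6 h, while B25 stayed between 1327 and 1565 CPM. Both B28 libraries of 6 h lay below all B25 libraries, so replicate 10 of that pair did not stand apart here. Dlgap5, a spindle protein outside the list that was named for its interaction of experiment and time, had 13.6 and 15.4 CPM in B25 and 22.2 and 21.1 CPM in B28 at 1 h, and 13.1 and 14.2 CPM against 11.9 and 11.3 CPM at 6 h. Cenpa, the histone of the centromere, had 17.7 and 20.4 CPM against 28.7 and 27.4 CPM at 1 h, and 18.9 and 20.4 CPM against 17.4 and 16.8 CPM at 6 h.

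The interaction of experiment and time was not called for any gene after adjustment by edgeR. The smallest adjusted p-value was 0.0675 for Dlgap5, Gtse1 and Cenpa, followed by Pttg1, and DESeq2 called 78 genes and limma 0. At an unadjusted p-value under 0.05, edgeR counted 1072 of 16309 genes (6.57%) and 20 of the 35 cell cycle genes. Over both experiments, 23 of the 35 were lower at 6 h than at 1 h and 0 were higher, where 2.54% of all genes were lower and 2.01% higher.

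Small and even differences marked the translation machinery. Of 30 ribosomal protein genes, 20 were higher in B28 and 0 lower, beside 8.81% and 8.86% of all genes, with a median of 0.0822, close to the median absolute difference of all genes. The count was 27 without replicate 10 of B28 at 6 h, 13 with offsets for length and GC content, and between 11 and 13 without any of 8 other libraries. The share of all counts in ribosomal protein genes was 1.10% ± 0.0345 in B25 and 1.19% ± 0.0558 in B28 (SD, n = 6 and 6, exact permutation p = 0.00926, adjusted p = 0.0185). In stretched cells the median of the 30 genes was -0.0233. Nuclear genes of oxidative phosphorylation gave 7 higher and 0 lower of 43, where 8.81% of all genes were higher.

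Part of the difference returned in the stretched cells of the same experiments, which share no library with the 12. Of 117 genes higher in B28 and also tested there, 106 (90.6%) lay on the same side of 0, of 84 lower genes 59 (70.2%), and of all genes above and below 0, 61.5% and 56.1% did. At an adjusted p-value under 0.05, 25 and 18 of them were called in the same direction in stretched cells. Of all genes tested there, 2.03% were called higher and 2.46% lower. In total 29 genes passed both limits in both conditions, 15 higher and 14 lower, where 0.227% and 0.153% of genes tested in stretched cells passed both limits. Of the genes with the largest rises and falls given above, these were Myl2, Plekha6, Tspan11, Il33, Kif1a, Ackr4, Sfrp2 and Cth.

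Kif1a had 3.81 to 6.83 CPM in stretched B25 cells and 7.62 to 11.3 CPM in stretched B28 cells (difference 0.77, adjusted p = 0.000223), and Il33 had 32.2 to 39.4 CPM against 15.9 to 24.1 CPM (difference -0.82, adjusted p = 0.000195). Neither overlapped. Members of the lists among the 29 were Lum, which was lower, and Ifit1, Ifi44 and Gsta1, which were higher. The others are named here after their values were seen, the lower ones being Sparcl1, Psca, Clca3b, Ms4a8a, Car8, Bglap2, Clec3b, Lctl and Chrdl1, while the higher ones included Ms4a4d, Spock1, Kcnab1, Aldh1l1, Ptx3, Slc1a6 and Sprr2k. Chrdl1, a secreted antagonist of bone morphogenetic proteins, differed by -0.58 in both conditions, with 18.0 to 22.5 CPM in B25 and 12.2 to 14.8 CPM in B28 without stretch. Bglap2 and Gsta1 share 95.2% and 92.9% of their sequence stretches with other genes, so their values are uncertain. Gsta1 had 4.71 to 7.21 CPM in B25 and 3.19 to 28.1 CPM in B28 without stretch, the groups overlapped, and its call was lost in 10 of the 12 fits without 1 library.

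**Figure D5:**
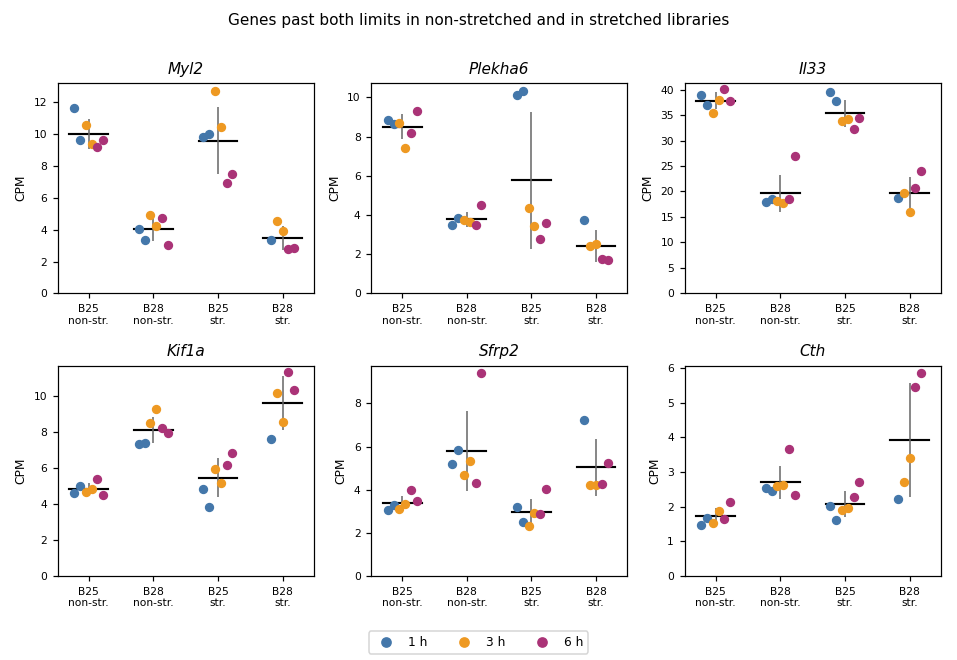
CPM of Myl2, Plekha6, Il33, Kif1a, Sfrp2 and Cth in non-stretched and stretched differentiated cells of B25 and B28. Points are libraries colored by time, lines the group means and bars the SD. Without stretch B28 lies on one side of B25 for each gene with no overlap, and Myl2 is lower by 1.31 without and by 1.45 with stretch on the log2 scale.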

How the data were processed

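Of 48 sequenced libraries of C2C12 cells, the 12 non-stretched differentiated libraries of experiments B25 and B28 were compared. The authors aligned the reads to mm10 with STAR, estimated transcript abundance with Salmon and deposited a table of whole-number counts per gene symbol for each stage; per the authors' methods these are estimated counts of Salmon, and the deposited values are whole numbers that were not normalized. The authors' name for these counts holds the word nobatch, whose meaning is not explained. Whether they were corrected for the experiment is not given in the sources used here. Salmon divides reads among genes that share sequence, so the share of 31-base stretches held by other genes was computed from GENCODE vM21 transcripts (45213 of 47480 symbols, 95.2%, matched; Ctgf was not matched). All 36 columns named here were used.

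Genes with low counts were removed (filterByExpr), libraries were scaled with TMM, and B28 was compared with B25 in edgeR 4.0.16 (R 4.3.3) by its quasi-likelihood F test with the time as a block. The same model was fitted to the 11 stretched libraries and to the 12 non-stretched myoblast libraries, and interactions were tested in joint models. P-values were adjusted over all genes tested. Log2 values for principal components used a prior count of 1. Library measures were compared by an exact permutation test within time, two-sided. The tests were checked on simulated data before use. DESeq2 1.42.0, limma 3.58.1 and the other alternatives are given in the closing section.

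Replicates are libraries of 1 experiment. Totals were between 55589577 and 70139730 counts, so genes with fewer than 100 counts are measured less precisely. Genes were named if they were among the 12 largest rises or falls with a mean of at least 100 counts, no overlap of the libraries, at most 20% shared stretches and an assigned symbol, among the 4 smallest p-values of an interaction, or members of 45 gene lists. The members and lists were chosen with earlier results of these data known. Mitochondrially encoded genes and splicing were not analysed here, and some genes that met the rule are not reported here.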

Additional observations from a re-analysis of the deposited data

Results flagged for a closer look

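Among 188 groups of 6 libraries looked at, 18 held a library far from the other 5 (9.57%), where chance gives about 1 in 20, and 14 of these 18 were replicate 10 of B28 at 6 h. In that library Tagln was at 105 CPM (the other B28 libraries 182 to 196), Ctgf at 63.4 (114 to 130), Acta2 at 1622 (2013 to 2194), Actg2 at 23.5 (42.4 to 48.9), Myl9 at 48.3 (68.9 to 75.4), Myc at 26.4 (34.5 to 36.7) and Col8a2 at 12.2 (16.9 to 19.6), all low. It was high for Ttn at 5238 CPM (971 to 2337), Il33 at 27 (17.7 to 18.5), Kcnj2 at 23 (17.7 to 18.6), Pdgfra at 12.9 (10.2 to 11.2), Plekha6 at 4.51 (3.46 to 3.84) and Sfrp2 at 9.40 (4.32 to 5.86). Its share of counts in the list of noncoding RNAs that includes Malat1 and H19 was 1.13%, against 1.20 to 1.24% in the others.

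Replicate 9 of B28 at 6 h stood apart with low Aldh3a1 (32.5 CPM, the others 60.5 to 76.0) and Nqo1 (38.8 CPM, the others 60.8 to 68.0) and with high Cth (3.65 CPM, the others 2.34 to 2.62). Replicate 8 of B25 at 3 h had 5.2 CPM of Cyp1a1, and the other B25 libraries had 2.95 to 3.74 CPM.

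For 12 named genes the difference between B28 and B25 depended on stretching by the interaction test. The interaction was positive, so that a difference below 0 without stretch moved toward or past 0 with it, by 2.57 for Cyp1a1, 1.33 for Ahrr, 0.85 for Cyp1b1, 0.78 for Nqo1, 0.75 for Nkd2, 0.62 for Adh7, 0.42 for Tiparp and 0.33 for Kcnj2 on the log2 scale. It was negative, at -0.62 for Ptn, -0.51 for Myl9, -0.34 for Fibin and -0.34 for Acat2, whose differences lay above 0 without stretch. Without 1 library at a time, Ahrr, Cyp1b1, Nkd2, Adh7, Tiparp and Ptn kept the call in all 23 fits, while Acat2 and Fibin lost it in 18, Myl9 in 17, Nqo1 in 14, Kcnj2 in 13 and Cyp1a1 in 5.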

How the results depend on the processing

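Counts of genes past both limits depended on the setting, and no called gene named in the text changed its direction, while Ckm and Fasn, which were not called, lay at -0.07 to 0.02 and -0.05 to 0.06 without 1 library. B28 against B25 gave 119 higher and 84 lower genes, 191 higher with no filter on low counts, 1415 and 1423 with no fold-change limit, and 0 and 9 with glmTreat, which tests against the limit itself. DESeq2 gave 96 and 61, with 151 of the 203 calls kept, and offsets for length and GC content kept 167. Leaving out 1 library gave 88 to 173 higher and 61 to 109 lower genes.

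The replicate numbers did not pair the libraries, with correlations of their deviations between -0.15 and 0.0848. With the replicate block, fitted in limma with an estimated correlation of the numbers, B28 against B25 gave 176 higher and 117 lower genes and kept 200 of the 203 calls. With the block stretched cells gave 62 and 40, 6 h against 1 h gave 4 higher, the interaction with stretch 4 higher and the myoblasts 5 higher.

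At single times the counts were 56 and 53 (1 h), 47 and 32 (3 h) and 13 and 21 (6 h). With no filter they were 151 and 125, 223 and 78, and 96 and 87, and with no fold-change limit 477 and 399, 224 and 160, and 47 and 76. Without 1 library they ranged over 11 to 88 and 18 to 81 at 1 h, 5 to 115 and 12 to 45 at 3 h, and 4 to 84 and 5 to 121 at 6 h. The highest counts at 6 h came without replicate 10 of B28 and the lowest without replicate 7 of B25. The interaction with time gave 0 genes, 78 with DESeq2, 413 with no filter, and 0 to 47 without 1 library, the 47 coming without replicate 8 of B25 at 1 h and also without replicate 9 of B28 at 6 h.

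For 6 h against 1 h (8 higher, 22 lower) the counts were 2 higher with DESeq2, 46 and 71 with no filter, 4 higher with at least 10 counts in every library, 322 and 408 with no fold-change limit, and 1 to 15 and 7 to 56 without 1 library. For stretched cells (37 and 25) they were 91 and 69 with no filter, 331 and 400 with no fold-change limit, and 22 to 39 and 16 to 27 without 1 library. For the interaction with stretch (10 and 3) they were 105 and 63, 31 and 33, and 4 to 48 and 0 to 25, and for the myoblasts (10 and 21) 62 and 60, 304 and 376, and 5 to 21 and 13 to 23. The cause of these shifts was not tested.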

Other observations

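Among lists not described above, genes of the clock gave 4 higher and 2 lower of 20 tested, with Dbp, an output factor of the clock, at 0.20 (adjusted p = 0.0333) and its repressor Nr1d1 at 0.11 (adjusted p = 0.021), and a list median of 0.0418. Genes of the unfolded protein response gave 0 higher and 4 lower of 21, with a median of -0.0588. Targets of ATF4, the factor of the amino acid response, gave 5 higher and 2 lower of 33, and 13 and 1 without replicate 10 of B28 at 6 h, with Trib3 at 0.47 (adjusted p = 0.00646) and Cth at 0.65. Cytokines and targets of NF-kB gave 5 higher and 2 lower of 19, among them Ccl2 at 0.37 (adjusted p = 0.0148). Immediate early genes gave 5 higher and 2 lower of 31, with Myc at 0.32 (adjusted p = 0.00307). Neat1, a nuclear noncoding RNA, differed by 0.61 (adjusted p = 0.0102), and Malat1 by -0.25 (adjusted p = 0.173). These values stand beside 8.81% higher and 8.86% lower genes over the whole table.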
